A study of Mus musculus with 6 samples.

Results

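Genes of the extracellular matrix and of its protease inhibitors were followed in undifferentiated mouse induced pluripotent stem cells (iPSCs). The 10 genes encode the matrix glycoproteins fibronectin (Fn1), Sparc, periostin (Postn) and fibrillin 1 (Fbn1), the small leucine-rich proteoglycans biglycan (Bgn), decorin (Dcn) and lumican (Lum), and the tissue inhibitors of metalloproteinases Timp1, Timp2 and Timp3. They were read from all probe sets that the array annotation assigns to one of them alone, which gave 23 probe sets for 9 genes among the 45037 analysed. Fbn1 has no probe set of its own in the annotation used here and was not analysed. No probe set names one of the genes together with another. The genes were chosen by earlier results of the same contrast in these data, among them the lower signals of Bgn and Timp3 and the level of Fn1, so their difference between the groups is described below and not tested.

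The iPSCs came from embryonic fibroblasts of Nanog-GFP mice that were reprogrammed with retroviral Oct3/4, Sox2, Klf4 and c-Myc and re-seeded on SNL feeder cells, a fibroblast line that carries a Lif transgene. The (−)/(+) group (clones 1, 2 and 3) received 3i only after colonies were picked, and the (+)/(+) group (clones 4, 5 and 6) received it during reprogramming as well. 3i is a mixture of the MEK inhibitor PD184352, the FGF receptor inhibitor SU5402 and the GSK3 inhibitor CHIR99021, so cells of both groups were in 3i when RNA was taken. Each array holds 1 clone. The clones share their fibroblast source and lived on feeder fibroblasts, and whether feeders were removed before this RNA was extracted is not given in the sources used here. Hybridisation batches are not given either, so whether they coincide with the groups is not known. An effect of batch could not be separated from the difference between the groups. The comparison asks whether the inhibitors during reprogramming left a difference in established iPSCs.

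The extracellular matrix is a mesh of collagens, glycoproteins and proteoglycans outside the cell. Fibronectin is assembled into fibrils through integrins, whereas small leucine-rich proteoglycans bind collagen fibrils and growth factors such as TGF-β. Metalloproteinases cut these proteins and TIMPs inhibit them, Timp3 while bound to the matrix itself. Fibroblasts make most of these proteins in abundance, and pluripotent cells and early endoderm also make fibronectin and Sparc.

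Values are MAS 5.0 signals, which give the brightness of 1 probe set on a linear scale, and they cannot be ranked between genes. Differences are given on the scale of log2(signal + 16), which understates changes of low signals. Of 45037 probe sets, limma was fitted to the 22518 brighter ones (those whose mean log2 value exceeded the median, near a signal of 67.2), and a call is a Benjamini-Hochberg adjusted p under 0.05 over all of them. Of all calls, 43.4% were higher in the (+)/(+) clones here and 79.4% were when arrays were scaled to a common median, which moved the median log2 difference of all tested probe sets from -0.05 to 0.10. The 7 pluripotency markers checked had signals of 1890.5 or more, with Pou5f1 at 8034 to 9793. In 2 of the 7 all (+)/(+) clones lay above all (−)/(+) clones, beside 1171 of 11177 genes tested by their brightest probe set. These were Nanog (12676 to 14402 against 15744 to 16347) and Zfp42 (2921 to 3372 against 3893 to 4553). Of the 7, 0 were called, and 2 were called higher after scaling to a common median. Some clones stood apart. Clone 1 had a median log2 shift of 0.25 over 929 genes of chromosome 11, where Sparc and Timp2 lie, clone 4 had 0.33 over 598 genes of chromosome 8, where none of the 10 genes lies, and in clone 5 the Y-linked Eif2s3y had a signal of 0.866 against 3879.9 to 5831 in the other clones.

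Most of the matrix and inhibitor probe sets were lower in the (+)/(+) iPSCs, with the widest gaps in Bgn, Timp3 and Timp2. Of the 23 probe sets, 19 (8 genes) were bright enough for the fit. Their log2 difference, (+)/(+) minus (−)/(+), had a median of -0.83, against -0.05 over all tested probe sets. It was below 0 in 17 of 19, beside 12975 of all 22518 tested. In 15 of the 19 all (+)/(+) clones lay below all (−)/(+) clones, which held for 16.6% of all probe sets tested. Among the 19, 10 were called lower and 0 higher, beside 1.77% called lower and 1.35% called higher of all tested. The genes were chosen on this contrast, so these counts are a description. The 10 are 3 probe sets each of Bgn and Timp2 and 2 each of Timp3 and Sparc. Left out one at a time, clones 1 to 6 gave 10, 8, 6, 8, 6 and 1 called lower, and the one without clone 6 was a Bgn probe set (1437889_x_at). Without clones 1 and 4 together, a setting chosen after seeing the data, 12 were called lower. In each of these fits 17 of the 19 were lower by their means, as they were after quantile normalization and after scaling to a common median.

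**Figure D1:**
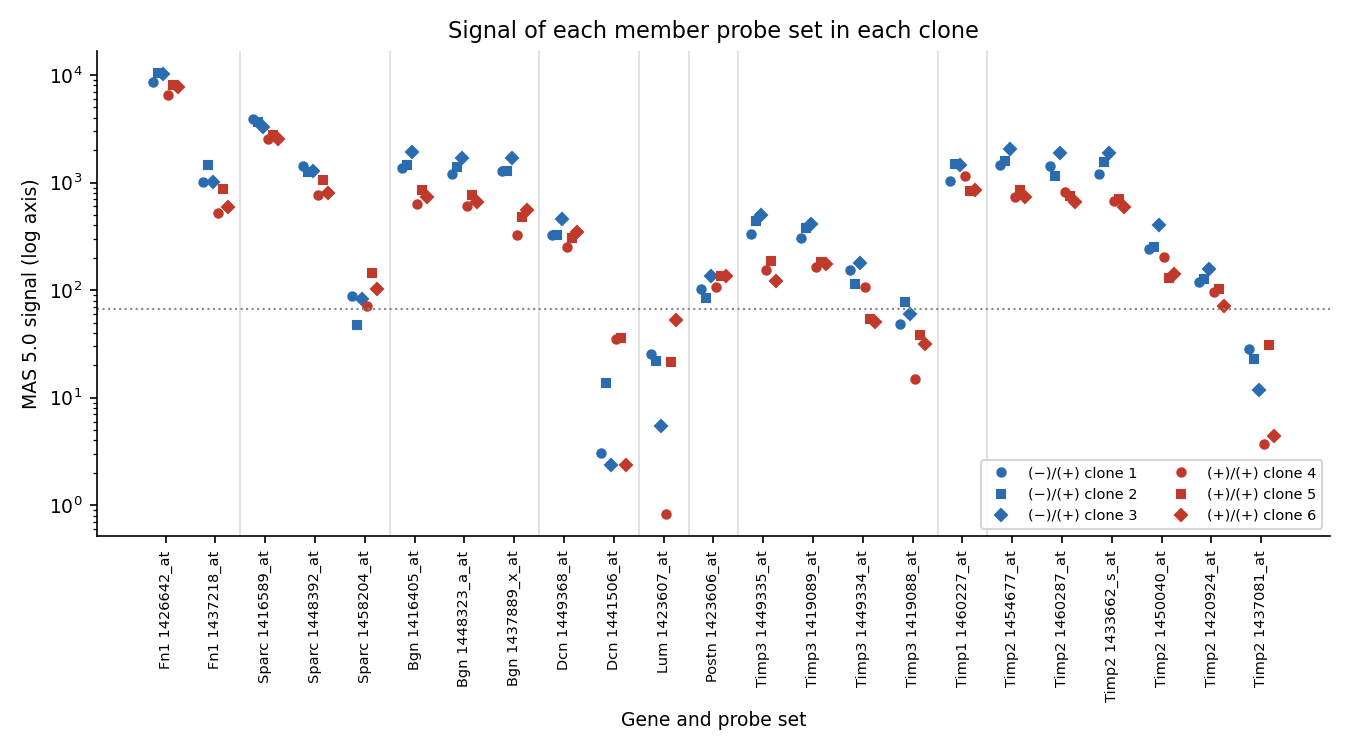
MAS 5.0 signal (y axis, log scale) of each of the 23 probe sets (x axis, grouped by gene) in each clone, blue for (−)/(+) and red for (+)/(+), with a dotted line near the lowest mean signal that was fitted. The blue points of Bgn lie between 1199 and 1943 and the red points between 325 and 851, whereas Postn and Dcn points of both colours mix.

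Fibronectin, the ligand of several integrins, was lower in both of its probe sets. The probe set 1426642_at had 8693, 10496 and 10234 in (−)/(+) clones 1, 2 and 3, whereas (+)/(+) clones 4, 5 and 6 had 6489, 8049.5 and 7792. The groups did not overlap, and all (−)/(+) clones were higher, although clone 1 and clone 5 lay close to each other. The means were 9808 ± 975 and 7443 ± 837 (SD, n = 3 each), a log2 difference of -0.40 (standard error 0.11). The second probe set, 1437218_at, had 1018, 1451 and 1004 against 524, 869 and 591, a log2 difference of -0.80 (standard error 0.20). Neither probe set was called, and clone 4 was lowest in both.

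Sparc, a collagen-binding matricellular protein, was lower 1.39-fold and 1.52-fold in its brighter probe sets. The probe set 1416589_at had 3899, 3679 and 3309 in the (−)/(+) clones, against 2527, 2752 and 2554 in the (+)/(+) clones. The means of 3629 ± 299 and 2611 ± 123 (SD, n = 3 each) differed by -0.47 on the log2 scale (standard error 0.10). The probe set 1448392_at had 1427, 1254 and 1292 against 759, 1049 and 799, a log2 difference of -0.61 (standard error 0.14). In both the groups did not overlap and clone 1 was highest. Without clone 1, whose chromosome 11 genes were raised, the differences were -0.42 and -0.56, and neither was called. They also lost their call without each of the other clones, after scaling to a common median, without the filter and under eBayes with no trend. The third probe set, 1458204_at, was dim, with 87.6, 47.2 and 83.0 against 71.7, 143 and 102, and its groups overlapped.

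Periostin, a matricellular protein of collagen-rich tissue, did not separate the groups. Its only probe set had 103, 84.7 and 135 in the (−)/(+) group and 108, 135 and 135 in the other, a log2 difference of 0.22 with a 95% interval of -0.25 to 0.68. The highest clones of the groups had nearly the same signal.

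Biglycan differed most among the 3 small leucine-rich proteoglycans. The probe set 1416405_at had 1359, 1459 and 1943 in the (−)/(+) clones, against 634, 851 and 735 in the (+)/(+) clones. The means were 1587 ± 312 and 740.1 ± 109 (SD, n = 3 each), which is 2.14-fold, with a log2 difference of -1.08 (standard error 0.16). The lowest (−)/(+) clone was above the highest (+)/(+) clone by more than the SD of either group. The probe set 1448323_a_at gave nearly the same picture, with 1199, 1408 and 1680.1 against 612, 769.5 and 663 (log2 difference -1.04). The largest gap was in 1437889_x_at, with 1294, 1291 and 1688 against 325, 477 and 554, where the means differed 3.15-fold (log2 difference -1.64, standard error 0.19). The suffix _x marks probe sets whose probes may also match other sequences, so this value is less certain than the others.

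Decorin and lumican are relatives of biglycan that also bind collagen. The groups overlapped for decorin, and lumican was too dim to compare. The brighter probe set of Dcn (1449368_at) had 322, 329 and 463 in the (−)/(+) clones, against 251, 303 and 347 in the (+)/(+) clones, and clone 6 lay above clones 1 and 2. Its log2 difference was -0.29 with a 95% interval of -0.69 to 0.12, so a fall as large as that of Bgn's first probe set (-1.08) lies outside the interval. The second Dcn probe set was between 2.37 and 35.6 in all clones and that of Lum between 0.829 and 53.1, both below the level fitted. Decorin and lumican lie near each other on chromosome 10, at 97479500 to 97518163 and 97565501 to 97572703 (RefSeq, GRCm38.p6), and Bgn lies on chromosome X at 73483601 to 73495936.

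**Figure D2:**
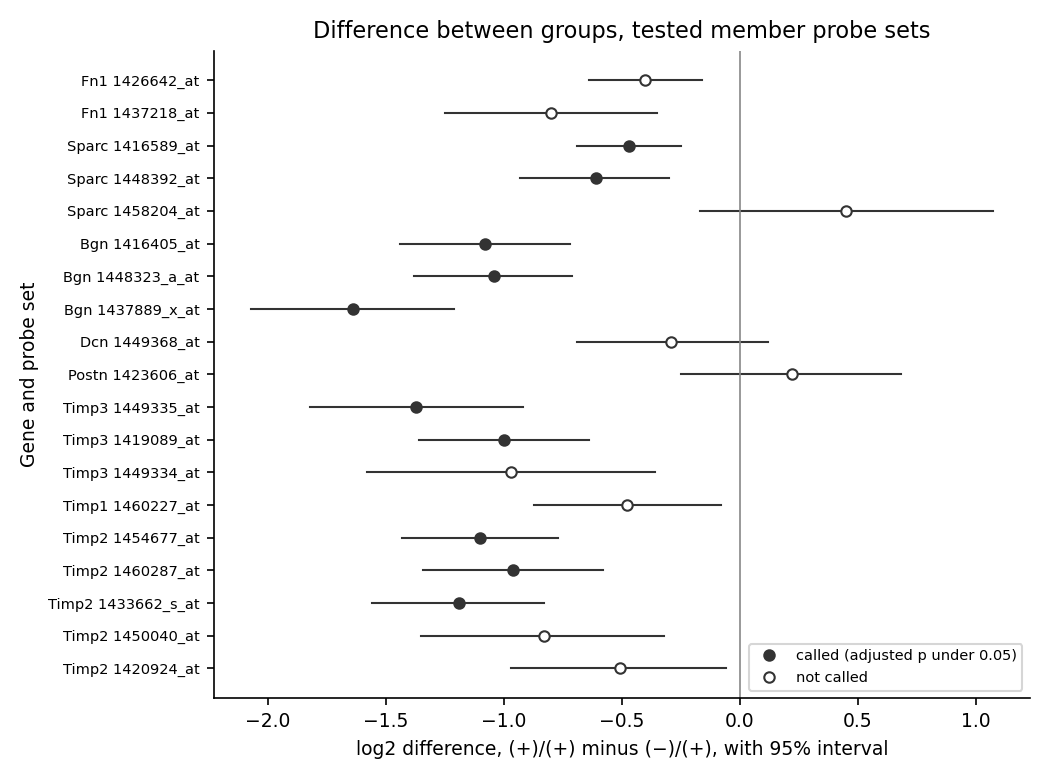
Log2 difference of the 19 fitted probe sets, (+)/(+) minus (−)/(+), on the x axis, with 95% intervals from limma (3 clones per group) as bars. Filled points were called over the whole table. The 3 Bgn intervals end at -0.71 or lower, while those of Dcn, Postn and the dim Sparc probe set cross 0.

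Timp3, the inhibitor that stays bound to the matrix, was lower in each of its probe sets. The probe set 1449335_at had 332, 442 and 498 in the (−)/(+) clones, against 154, 189 and 121 in the (+)/(+) clones. The means were 424 ± 84.3 and 154 ± 33.8 (SD, n = 3 each), a 2.75-fold gap and a log2 difference of -1.37 (standard error 0.20). The probe set 1419089_at had 308, 378 and 412 against 164, 184 and 173 (2.10-fold, standard error 0.16 on the log2 scale), and 1449334_at had 153, 114 and 181 against 108, 53.8 and 50.5 (-0.97, standard error 0.27, not called). In these and in the remaining dim probe set, 1419088_at (48.6, 78.4 and 59.9 against 15.0, 38.2 and 31.4, not fitted), every (−)/(+) clone was above every (+)/(+) clone. Timp3 lies on chromosome 10 at 86300412 to 86349505, within the bounds of the synapsin gene Syn3.

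Timp2, which inhibits metalloproteinases and also takes part in the activation of Mmp2 at the cell surface, differed about as much as Bgn. The probe set 1454677_at had 1446, 1579 and 2061 in the (−)/(+) clones, against 729, 858 and 737 in the (+)/(+) clones. The means were 1695 ± 324 and 775 ± 72.4 (SD, n = 3 each), a 2.19-fold gap and a log2 difference of -1.10 (standard error 0.15). The probe sets 1433662_s_at (1202, 1559 and 1883 against 678, 709 and 589.7) and 1460287_at (1426, 1164 and 1882 against 822, 754 and 660) had log2 differences of -1.19 and -0.96. A pair of dimmer ones, 1450040_at and 1420924_at, had -0.83 and -0.51 and were not called, though their groups did not overlap either. The dimmest, 1437081_at, was between 3.69 and 30.7 and was not fitted. Clone 1, with its raised chromosome 11, had the lowest or second lowest (−)/(+) value in the fitted probe sets, and without it the log2 differences were between -1.36 and -0.58.

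Timp1, the inhibitor that many cells induce on stimulation, overlapped between the groups. Its probe set had 1029, 1504 and 1458 in the (−)/(+) clones, against 1157, 841 and 850.4 in the (+)/(+) clones, so that clone 4 was above clone 1. The means were 1330.2 ± 262 and 949 ± 179 (SD, n = 3 each), with a log2 difference of -0.48 and a 95% interval of -0.87 to -0.08. It was not called. The gene lies on chromosome X at 20870166 to 20874737, inside Syn1. Over 368 tested genes of chromosome X the median shift of a clone was between -0.02 and 0.03 on the log2 scale.

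Within the groups, the same clones tended to be at the ends. Of the 19 fitted probe sets, 13 had their highest (−)/(+) value in clone 3 and 11 their lowest in clone 1. In the (+)/(+) group 13 were highest in clone 5 and 12 lowest in clone 4. Probe sets of 1 gene share their RNA, so these counts are not independent. The same counts were not made over all tested probe sets, so an order shared by whole arrays cannot be told apart here. The median signals of the arrays were 75.7, 75.4 and 74.3 in clones 1, 2 and 3. In clones 4, 5 and 6 they were 64.1, 70.2 and 67.6. The spread within the groups was a little wider than is usual on these arrays, with a median within-group SD of 0.25 on the log2 scale (0.10 to 0.41) against 0.19 over all tested probe sets.

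Bgn and Timp2 had almost the same profile over the clones. Likeness was measured as the root mean square difference of log2(signal + 16) over the 6 clones, each gene centred on its own mean and read by its brightest probe set. Of 11176 other genes, the one nearest to Bgn was Timp2, at 0.065, followed by the serine protease gene Prss23 (0.081) and the receptor tyrosine kinase gene Axl (0.086), where the median gene was at 0.575. Timp3 was at rank 72 (0.231). Nearest to Timp3 were the cytokine gene Tnfsf9 (0.103), the collagen gene Col8a1 (0.173) and the membrane protein gene Emp1 (0.176), with Timp2 at rank 5 and Bgn at rank 13. Fn1 and Sparc had other neighbours, namely the actinin gene Actn1, Ankrd13c and the kinase gene Cdk16 for Fn1 (0.036 to 0.038) and the acetyltransferase gene Kat2a, Ubap2 and the phosphatase gene Mtmr4 for Sparc (0.021 to 0.043). Sparc was at rank 1067 for Fn1, and Bgn at rank 8511. These distances rest on 6 arrays and take in the gap between the groups.

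**Figure D3:**
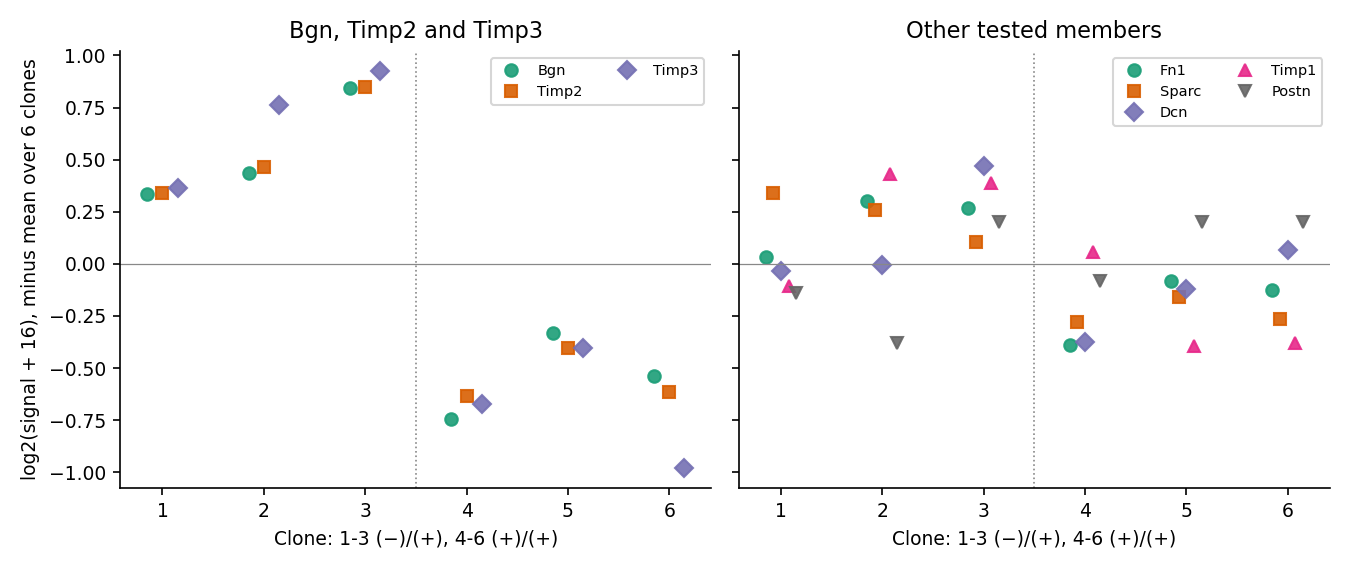
Log2(signal + 16) of the brightest probe set of each gene, minus its mean over the 6 clones (y axis), in each clone (x axis), for Bgn, Timp2 and Timp3 (left) and the other fitted genes (right). Points of Bgn and Timp2 nearly coincide in every clone, at a distance of 0.065, while Dcn, Timp1 and Postn mix across the dotted line between the groups.

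The stretches of 250 bases before the annotated start (RefSeq, GRCm38.p6) are shown for the genes with the widest gaps, Bgn, Timp2 and Timp3, and for the related Timp1, whose groups overlapped. Of the 10 genes, 7 matched the promoter table. Capitals mark GC boxes, GGGCGG on either strand.
Bgn, chrX:73483351-73483600, plus strand: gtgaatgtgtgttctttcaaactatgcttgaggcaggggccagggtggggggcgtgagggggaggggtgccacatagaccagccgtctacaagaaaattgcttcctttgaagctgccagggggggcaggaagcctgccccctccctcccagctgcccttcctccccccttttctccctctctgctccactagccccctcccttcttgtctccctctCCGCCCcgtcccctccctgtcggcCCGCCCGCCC
Timp3, chr10:86300162-86300411, plus strand: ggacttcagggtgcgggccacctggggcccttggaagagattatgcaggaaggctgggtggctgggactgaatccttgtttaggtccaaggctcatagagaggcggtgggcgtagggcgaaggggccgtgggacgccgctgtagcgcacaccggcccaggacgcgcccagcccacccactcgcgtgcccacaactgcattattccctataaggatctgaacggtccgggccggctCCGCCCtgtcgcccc
Timp2, chr11:118355412-118355661, minus strand: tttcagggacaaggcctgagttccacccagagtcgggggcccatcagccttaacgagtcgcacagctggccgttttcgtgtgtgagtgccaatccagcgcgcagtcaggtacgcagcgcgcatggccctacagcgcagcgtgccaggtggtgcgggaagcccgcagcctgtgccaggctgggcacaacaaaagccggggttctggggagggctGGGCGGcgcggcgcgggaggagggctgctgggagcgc
Timp1, chrX:20869916-20870165, plus strand: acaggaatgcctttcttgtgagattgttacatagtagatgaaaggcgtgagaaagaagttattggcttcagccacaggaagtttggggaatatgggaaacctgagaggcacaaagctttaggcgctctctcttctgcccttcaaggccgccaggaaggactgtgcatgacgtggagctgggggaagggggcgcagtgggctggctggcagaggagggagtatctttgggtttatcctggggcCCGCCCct

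Bgn holds 3 GC boxes, the last pair of which overlap, and Timp3, Timp2 and Timp1 hold 1 each, so the motif does not separate Timp1 from the others. It occurs in 32.7% of 32851 promoter stretches of this length. Neither a TATA box (TATAAA, 12.4% of all stretches) nor an AP-1 site (TGACTCA, 4.46%), searched on both strands, was found in these letters of the 4 genes. Timp3 and Timp2 had 18 and 21 CpG dinucleotides in the stretch, and Bgn and Timp1 had 7 and 6.

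Other genes of the matrix were mostly lower as well. Lists of other proteoglycans, other matrix glycoproteins, metalloproteinases with other inhibitors, receptors of matrix proteins and enzymes that process matrix or build glycosaminoglycans held 155 genes, of which 147 were measured and 91 tested by their brightest probe set. In limma 8 were lower and 2 higher in the (+)/(+) clones, beside 1.41% lower and 1.55% higher of 11177 genes tested in the same way. Their median log2 difference was -0.35, against -0.05 for all genes. Of the 91, 71 were below 0, beside 6438 of all 11177 genes, a share that also stands beside the single lists below. After scaling to a common median 61 of the 91 were below 0, where the median over all tested probe sets was 0.10. How many of all genes were below 0 was not counted at that setting. Leaving out clones 1 to 6 in turn gave 18, 5, 1, 3, 2 and 1 lower and 2, 1, 1, 1, 0 and 0 higher. The lists here and below were chosen with earlier results of these data known, so their counts and p-values are a description.

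Most other glycoproteins had a lower mean in the (+)/(+) clones, 23 of 29 tested, with a median log2 difference of -0.51. In 16 of the 29 all (+)/(+) clones lay below all (−)/(+) clones and in 2 above them, beside 1770 and 1171 of 11177 genes tested. Of the 29, 3 were called lower and 2 higher. Fbln2, a fibulin of elastic fibres and basement membranes, fell from 484 ± 60.2 to 240 ± 46.2 (SD, n = 3 each), a log2 difference of -0.98 (adjusted p = 0.019 from limma). Ltbp3, which encodes a latent TGF-β binding protein, fell from 969 ± 165 to 550.1 ± 128 (log2 difference -0.81, adjusted p = 0.043 from limma), and Efemp1, a fibulin named after its values were seen, fell from 662 ± 186 to 346 ± 54.7 (log2 difference -0.88, adjusted p = 0.044 from limma). The matricellular genes Ccn2 and Ccn1 rose, Ccn2 from 3980 ± 495 to 6430.5 ± 496 (log2 difference 0.69, adjusted p = 0.014 from limma) and Ccn1 from 1597 ± 5.63 to 2217 ± 137 (0.47, adjusted p = 0.040). The Ccn1 probe set, 1416039_x_at, also carries the suffix _x, and other Ccn1 probe sets did not pass. Fbln2 lost its call without clone 3, 4 or 6, Ccn2 without clone 5 or 6, Ltbp3 without any clone but clone 2, and Ccn1 and Efemp1 without any clone but clone 1.

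Of 16 other proteoglycans tested, 12 had a lower mean in the (+)/(+) clones and limma called 0. An unadjusted p under 0.05 was found for 7 of the 16, beside 2333 of all 11177 genes tested. Without clone 1, 4 were called lower, Agrn, Gpc4, Ogn and Sdc2, and the same 4 were with arrayWeights, which also called 1 higher. Scaling to a common median gave 1 higher as well, and a pseudocount of 64 gave 1 lower, Agrn. Srgn, the serglycin of secretory granules, named after its values were seen, went the other way, with 133, 75.1 and 97.9 in the (−)/(+) clones against 193, 668.5 and 233.5 (log2 difference 1.51, standard error 0.39, adjusted p = 0.062 from limma), and clone 5 was far above the others. Agrn, the heparan sulphate proteoglycan agrin of basement membranes, averaged 1649 ± 160 in the (−)/(+) and 1168 ± 53.7 in the (+)/(+) clones (limma's adjusted p = 0.051). The cell surface proteoglycan gene Sdc4 had 1960 ± 241 and 1897 ± 126, with a log2 difference of -0.04 whose sign turned after scaling to a common median.

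Of 15 metalloproteinases and other inhibitors tested, 11 had a lower mean, and the membrane-bound metalloproteinase Adam19 was the one called. It had 1286, 1252 and 1320.5 in the (−)/(+) clones, against 727, 757 and 813 in the (+)/(+) clones (log2 difference -0.74, standard error 0.11, adjusted p = 0.012 from limma), and clones of a group lay close together. A second probe set of it did not pass (adjusted p = 0.28 from limma), and the first lost its call without clone 3, 5 or 6.

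Of 10 receptors tested, 8 had a lower mean in the (+)/(+) clones and 2 of them were called lower. The hyaluronan receptor gene Cd44 fell from 1101 ± 300 to 589.8 ± 15.4 (log2 difference -0.85, adjusted p = 0.035 from limma), and 2 further probe sets of it passed as well. Ddr1, a collagen receptor, fell from 1612 ± 316 to 848 ± 76.9 in its brightest probe set, 1456226_x_at (adjusted p = 0.018 from limma). Its suffix _x marks probes that may also match other sequences, so this value is less certain. In the dimmer Ddr1 probe sets the groups overlapped and none passed. Cd44 lost its call without any clone but clone 1, and Ddr1 without clone 3, 5 or 6.

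Of 21 enzymes tested, 17 had a lower mean and 2 of them were called lower. Pcolce, which enhances the cleavage of procollagen, fell from 3279 ± 340 to 1786 ± 67.8 (SD, n = 3 each), with values of 2988, 3197 and 3653 against 1863, 1758 and 1736 (log2 difference -0.87, standard error 0.11, adjusted p = 0.0051 from limma). It passed whichever clone was left out. Lox, the enzyme that cross-links collagen and elastin, fell from 272 ± 63.6 to 132 ± 25.2 (log2 difference -0.95, adjusted p = 0.040 from limma). A second probe set passed as well (adjusted p = 0.012 from limma), and the first passed only when clone 1 or none was left out.

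**Figure D4:**
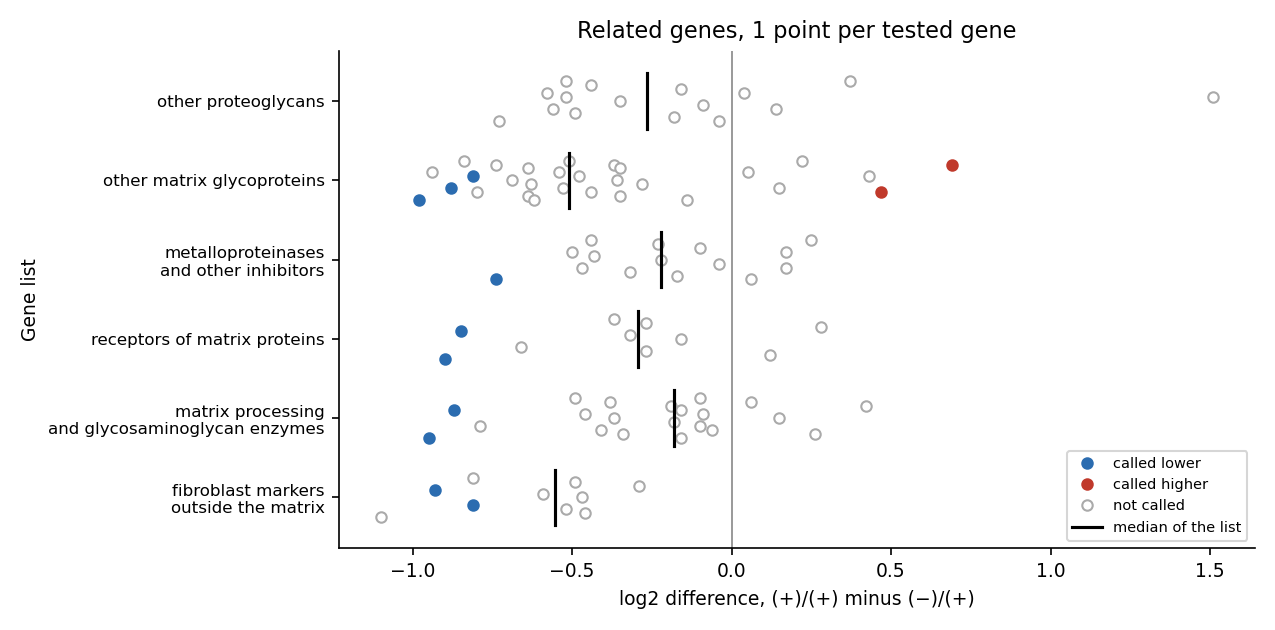
Log2 difference, (+)/(+) minus (−)/(+), of each tested related gene by its brightest probe set (x axis), by list (y axis), with blue for genes called lower, red for genes called higher, open points for the others and a black bar at the median of the list. The medians lie between -0.18 and -0.51 for the 5 matrix lists and at -0.55 for fibroblast markers.

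Fibroblast markers that are not matrix proteins were lower as well. In bulk RNA, fewer cells of a type and less RNA per cell cannot be told apart. Of 16 such markers, 10 were tested and 2 were called lower in limma, beside 1.41% of 11177 genes tested. All 10 had a lower mean in the (+)/(+) clones, beside 6438 of all 11177 genes tested. Cav1, a caveolar protein, had 1107, 1247 and 1625 against 791, 643 and 611 (log2 difference -0.93, adjusted p = 0.019 from limma), and the smooth muscle actin gene Acta2 had 363, 408 and 549.6 against 241, 243 and 235 (-0.81, adjusted p = 0.036 from limma). Cav1 lost its call without clone 3, 5 or 6, and Acta2 without any clone but clone 1. Of the 10, quantile normalization or scaling to a common median left 1 called lower, and arrayWeights gave 6. With eBayes without trend and with the methods' t-test 0 were called. The summed signal of the 16 markers was 5811 to 9612 in the (−)/(+) clones, with clone 3 highest, and 4066 to 4354 in the (+)/(+) clones. The brightest of them was S100a4 (2672 to 5229 against 1839 to 2203), and 6 of the 16, among them Fap, Cd248 and Tagln, had a mean signal below 50. The surface marker Thy1 had 229, 248 and 351 against 183, 211 and 187. Their part in the lower matrix signals was not tested.

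Endoderm markers gave no call. Of 10 markers of primitive endoderm, a cell type rich in Sparc and fibronectin, 5 were tested, of which limma called 0. An unadjusted p under 0.05 was found for 1 of the 5, beside 2333 of all 11177 genes tested. Gata6 had 165 ± 38.2 and 236 ± 66.7 and Amn 269 ± 35.6 and 184 ± 40.8 (SD, n = 3 each), and the summed signal was 824 to 1024 and 706 to 1184. Among the markers too dim to be fitted, Hnf4a, named after its values were seen, did not overlap between the groups. It had 82.3, 88.4 and 70.2 against 11.6, 22.0 and 22.3 (log2 difference -1.49). Foxa2 and Cubn, also not fitted, had 0.58 each and their groups overlapped. Lif, carried as a transgene by SNL feeders, had 86.4 to 108 in the (−)/(+) and 85.4 to 124 in the (+)/(+) clones. Whether its probe set reads the transgene was not checked, so these values do not measure feeder content.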

How the data were processed

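RNA of 6 iPSC clones, 3 per group, was hybridised by the authors to 1-colour Affymetrix Mouse Genome 430 2.0 arrays, and the deposited values are MAS 5.0 signal intensities on a linear scale. The mean of each array, trimmed by 2% at both ends, is 500.0, so the authors had scaled them, and no normalization was added. Presence calls and probe-level data were not used here. After 64 controls were left out, 45037 probe sets remained, 34945 with 1 gene symbol in the array annotation. Groups followed the sample titles. Log2(signal + 16) values of the 22518 probe sets above the median were fitted with lmFit and eBayes (with trend) of limma 3.58.1 under R 4.3.3, with Benjamini-Hochberg adjustment. A gene was read by its brightest probe set. Members and lists were chosen with earlier results of these data known. Genes named beside the members were, in each list, up to 4 called genes with the smallest adjusted p, or the 2 brightest where none was called, and the 3 genes with the nearest profile for Fn1, Sparc, Bgn and Timp3. Chromosome positions and promoter stretches came from RefSeq (GRCm38.p6). On simulated data with 200 changed probe sets of 22518, the fit recovered 0% of 1.5-fold, 49% of 2-fold and 88% of 3-fold changes. The real table held more calls (398 lower and 305 higher), so its adjusted threshold differs and these shares do not carry over to it. A call there could be below 1.5-fold, as for Sparc 1416589_at (1.39-fold). The alternatives were scaling to a common median, quantile normalization, a pseudocount of 1 or 64, fitting all probe sets, eBayes without trend, arrayWeights, the methods' t-test, a gene's mean over its probe sets and leaving out each clone. Leaving out clones 1 and 4 together was added after seeing the data. The number of arrays limits the precision. Each p-value sets the difference between the groups against the spread between clones of a group, which limma moderates over all fitted probe sets. Whether the clones of a group came from separate reprogramming runs is not given, so variation between runs may not be covered.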

Additional observations from a re-analysis of the deposited data

How the results depend on the processing

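The 19 fitted probe sets of the matrix and inhibitor genes kept the sign of their difference in all 15 alternatives, and none was called higher in any. With all clones kept, 10 called lower became 16 with arrayWeights, and 0 by the methods' t-test after Benjamini-Hochberg adjustment, where 15 had an unadjusted p under 0.05. The other alternatives with all clones gave 7 to 10, and leaving out clones 1 and 4 together gave 12. Calls over the whole table, 398 lower and 305 higher, became 255 lower with quantile normalization, 238 and 917 with scaling to a common median, 120 and 101 with no filter, 178 and 87 under eBayes without trend, 1512 and 1015 with arrayWeights and 1 and 0 by the methods' t-test (2427 and 1572 unadjusted). Higher calls were 535 without clones 1 and 4. Related matrix genes, 8 lower and 2 higher, became 4 lower with quantile normalization, 5 with scaling to a common median, 4 and 1 with no filter, 3 and 0 under eBayes without trend, 30 and 4 with arrayWeights, 1 and 1 with genes read by the mean of their probe sets, 15 lower without clones 1 and 4, and 0 and 0 by the methods' t-test (31 and 2 unadjusted). Leaving out single clones gave 25 to 515 lower and 27 to 446 higher over the whole table, 1 to 10 lower for the matrix and inhibitor probe sets, and 1 to 18 lower and 0 to 2 higher for the related genes. The lowest counts came without clone 6, and without clone 3 or 6 for the related genes. The cause was not tested. Only Sdc4 reversed, from -0.04 to 0.12 with scaling to a common median, 0.04 with arrayWeights, without clone 1 and without clones 1 and 4, and 0.01 without clone 6, while single clones left out gave -0.14 to 0.04. No paired analysis was possible because the clones share no numbers between the groups. Signals near the background, such as those of Lum, allow no statement on a difference.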
